A study of Caenorhabditis elegans with 8 samples.

Results

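The ageing of wild-type Caenorhabditis elegans was described here from 4 of the 8 RNA sequencing libraries of a study of adult worms. The libraries were chosen by strain and age: 2 came from N2 worms at adult day 12 and 2 from N2 worms at adult day 4. N2 is the standard wild-type laboratory strain, and per the labels these worms carried no mutation. Worms of both ages were grown at 20 °C on agar plates that contained FuDR, a drug that blocks DNA synthesis and so keeps adults from producing progeny. RNA was extracted from whole worms that had been washed free of most of their food bacteria, so every tissue contributed to each library. The other 4 libraries, from worms with a mutation in the microRNA gene mir-83 at the same ages, also entered the fit, where they bear on the spread between libraries and on the replicate block, and their own age difference is set beside that of N2 at the end. Genes were described over the whole genome: 18292 genes had a row in both replicate tables, and 15847 of them passed a filter on low counts and were tested.

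An adult worm is largely made of intestine, germ line, muscle, epidermis and neurons. The intestine digests bacteria, stores fat and, in the reproductive period, makes yolk proteins that are carried to oocytes in the germ line. The germ line makes gametes, and its cells depend on RNA-binding proteins, germ granules (RNA-rich bodies at the nuclear surface), small RNA pathways and DNA repair. In old worms yolk, muscle structure, cuticle, feeding and reproduction are all known to change, and the insulin-like pathway that ends in the transcription factor DAF-16 is a well-studied regulator of lifespan.

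The deposited reads came to 34.3 and 36.9 M in the N2 day 12 libraries (replicates 1 and 2), against 20.3 and 32.1 M in the N2 day 4 libraries. The day 4 library of replicate 1 was the shallowest. The 10 most abundant genes held 3.94 and 4.52% of reads at day 12, against 5.89 and 6.20% at day 4. Across genes, which are not independent replicates, log2 levels correlated at 0.958 between the day 12 replicates and at 0.948 between the day 4 replicates. Whether the replicates are separate worm cultures is not said in the sources used here. The p-values therefore cover the spread among these libraries alone, and that spread may be technical. In replicate 1 the labels carry sequencing run codes that differ between day 12 and day 4, and run and age cannot be told apart there. The labels of replicate 2 carry no such code.

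Levels are given as counts per M reads (CPM) after TMM scaling, and differences as log2 fold changes, day 12 minus day 4, with a standard error (SE) from the model. A value in brackets after a gene's levels is its log2 fold change ± SE. A gene was called when the Benjamini-Hochberg adjusted p of a two-sided edgeR quasi-likelihood test over all tested genes was under 0.05. At day 12, 334 genes were higher and 380 lower, which is 2.11% and 2.4% of the genes tested, or 4.51% in both directions together. The smallest adjusted p was 0.0143, and 4460 genes were under 0.05 before adjustment. The called decreases were larger than the called increases: the median absolute log2 fold change was 2.78 among lower genes and 1.49 among higher genes. All 334 higher and all 380 lower genes had 1 direction in both replicates. The ages did not overlap for 330 of the 334 and for all 380. These traits therefore add no support for a called gene named below. With no model, 1084 genes (6.84%) were at least 2-fold higher at day 12 in both replicates, and 1258 (7.94%) at least 2-fold lower. At 4-fold these numbers were 50 and 256. The called genes depend on every N2 library: 0 genes were called without either day 12 library, 0 higher and 3 lower without day 4 replicate 1, and 42 higher and 433 lower without day 4 replicate 2. Without the replicate block 48 were higher and 88 lower. The share of calls that were higher was 46.8%, but it was 69.4% (657 higher, 290 lower) with plain library sizes in place of TMM factors and 5.82% (16 higher, 259 lower) with the offset for gene length described below.

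**Figure D1:**
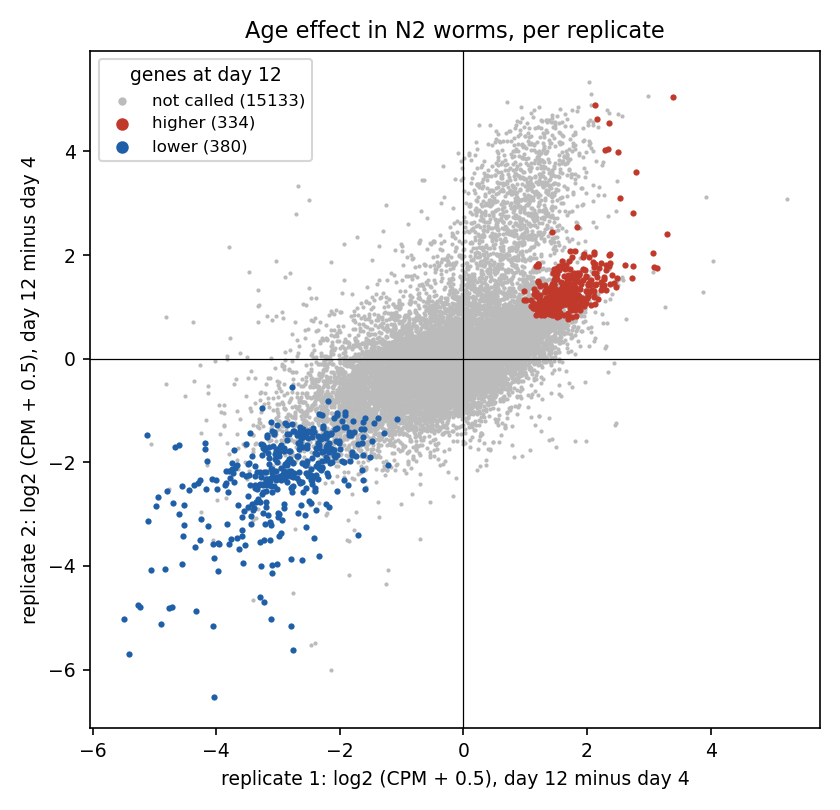
Difference in log2 (CPM + 0.5), day 12 minus day 4, in replicate 1 (horizontal axis) and replicate 2 (vertical axis) for each of the 15847 genes tested in N2 worms. Each point is a gene, in red where it was called higher at day 12 (334 genes), in blue where it was called lower (380 genes) and in grey where it was not called. Red points lie at the upper right and blue points at the lower left, and the blue points reach farther from 0. A grey cloud above the red points holds genes with a large difference in replicate 2 and a smaller one in replicate 1.

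All 6 vitellogenin genes, which encode the yolk proteins made in the adult intestine, fell at day 12. Of these, vit-5 (chromosome X, positions 3403471 to 3408603 of WBcel235) stood at 1315 and 1640 CPM in the day 12 libraries, against 8509 and 8075 CPM in the day 4 libraries, which gave -2.53 ± 0.44 on the log2 scale (SE of the model, edgeR adjusted p = 0.0307). The transcript of vit-6 stood at 1199 and 1427 CPM at day 12, against 5388 and 4958 CPM at day 4 (log2 fold change -2.01 ± 0.39, edgeR adjusted p = 0.0342). The day 12 and day 4 libraries did not overlap for any of the 6. Over all genes tested, 29.6% were higher and 30.1% lower at day 12 with no overlap. For vit-2 the values were 1211 and 2466 CPM at day 12, against 7080 and 6686 CPM at day 4 (-2.05 ± 0.44, edgeR adjusted p = 0.0427). All 6 calls were lost without the replicate block and on leaving out either mir-83 day 4 library, and all 6 were kept in DESeq2. The summed level of the family was 3860 and 5622 CPM at day 12, against 22180 and 20110 CPM at day 4. The copies vit-3 and vit-4 are near-identical neighbours on chromosome X, and how reads were shared between them is uncertain. These are bulk samples, in which fewer cells of a type and less RNA per cell cannot be told apart.

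Other genes of the intestine and of digestion moved in the same direction. In a list of 49 tested genes of lysosomal proteases and the vacuolar proton pump, which acidifies lysosomes, 10 were called lower and 0 higher, with a median log2 fold change of -0.97 against -0.09 over all genes tested. The aspartyl protease gene asp-1 stood at 152.9 and 178.0 CPM at day 12, against 1532 and 1161 CPM at day 4 (log2 fold change -3.05 ± 0.38, edgeR adjusted p = 0.0225). Its relative asp-2 stood at 40.8 and 59.4 CPM at day 12, against 447.5 and 492.9 CPM at day 4 (-3.28 ± 0.43, edgeR adjusted p = 0.0225). In both genes the ages lay far apart and the replicates of an age close together. The cathepsin B-like gene cpr-6 also fell, with 68.9 and 53.9 CPM at day 12, against 518.8 and 186.6 CPM at day 4 (-2.44 ± 0.40, edgeR adjusted p = 0.0283), and so did vha-6, a pump subunit of the intestinal surface, with 22.7 and 22.99 CPM at day 12, against 99.1 and 79.3 CPM at day 4 (-1.98 ± 0.38, edgeR adjusted p = 0.0339). The acid phosphatase gene acp-6 fell to 7.39 and 9.60 CPM at day 12, against 137.6 and 94.1 CPM at day 4 (-3.81 ± 0.42, edgeR adjusted p = 0.0225).

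A list of 27 genes of intestinal identity and structure had 5 members called lower and 0 higher. The genes asp-1, cpr-6 and vha-6, described above, are among these 5, so the list is not separate from the genes above. Its median was -1.24, with -1.65 in replicate 1 and -0.51 in replicate 2. Also among the 5, ifb-2, an intermediate filament gene of the gut lining, stood at 10.1 and 13.5 CPM at day 12, against 29.1 and 41.4 CPM at day 4 (-1.57 ± 0.30, edgeR adjusted p = 0.0342). The gene of the intestinal transcription factor ELT-2 was not called, with 3.88 and 8.71 CPM at day 12, against 13.3 and 17.1 CPM at day 4 (elt-2, edgeR adjusted p = 0.136). Of 8 intestine markers 7 were tested and 3 called lower. Their summed level, of which vit-2 and vit-5 made up most, was 2581 and 4208 CPM at day 12, against 15800 and 14930 CPM at day 4.

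Genes of secreted defence proteins were among those that fell. Lysozymes and saposin-like proteins, which break down bacterial walls and membranes and are made mostly in the intestine, had 12 of 37 tested members lower (32.4%) and 0 higher. The saposin-like gene spp-3 stood at 26.9 and 26.3 CPM at day 12, against 522.8 and 227.3 CPM at day 4 (log2 fold change -3.79 ± 0.43, edgeR adjusted p = 0.0225). Its relative spp-5 stood at 150.2 and 254.2 CPM at day 12, against 1996 and 1180 CPM at day 4 (-3.07 ± 0.49, edgeR adjusted p = 0.0269). The lysozyme gene lys-8 stood at 57.0 and 84.4 CPM at day 12, against 503.8 and 435.9 CPM at day 4 (-2.81 ± 0.47, edgeR adjusted p = 0.0283). In these genes no day 12 library reached a day 4 library, as in all 380 genes called lower. A less steep decrease was seen for lys-7, a lysozyme gene known as a target of DAF-16, with 663.3 and 1217 CPM at day 12, against 2729 and 3091 CPM at day 4 (-1.71 ± 0.37, edgeR adjusted p = 0.0436). The invertebrate-type lysozyme gene ilys-5 fell by 4.44 ± 0.70 on the log2 scale (edgeR adjusted p = 0.0269), with replicates that differed widely: 15.6 and 2.69 CPM at day 12, against 379.1 and 49.05 CPM at day 4.

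C-type lectins, sugar-binding proteins of which many respond to pathogens, had 25 of 136 tested members lower (18.4%) and 0 higher, with a median of -1.86. The files held 203 lectin genes in both tables, and 67 did not pass the count filter. For clec-85 the values were 18.8 and 14.8 CPM at day 12, against 231.2 and 164.3 CPM at day 4 (-3.56 ± 0.43, edgeR adjusted p = 0.0225). For clec-41, a gene with a longer transcript, they were 37.4 and 56.7 CPM at day 12, against 144.3 and 227.0 CPM at day 4 (-1.97 ± 0.24, edgeR adjusted p = 0.0225). The neighbours clec-62, clec-63 and clec-65, were called lower together on chromosome II between positions 12893062 and 12914564. Antimicrobial peptide and infection response genes had 11 of 70 tested members lower and 0 higher. They included irg-5, induced by infection, at 5.54 and 14.7 CPM at day 12, against 47.6 and 163.7 CPM at day 4 (-3.31 ± 0.42, edgeR adjusted p = 0.0225), and irg-3 at 4.41 and 5.91 CPM at day 12, against 44.6 and 42.9 CPM at day 4 (-3.13 ± 0.47, edgeR adjusted p = 0.0252).

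**Figure D2:**
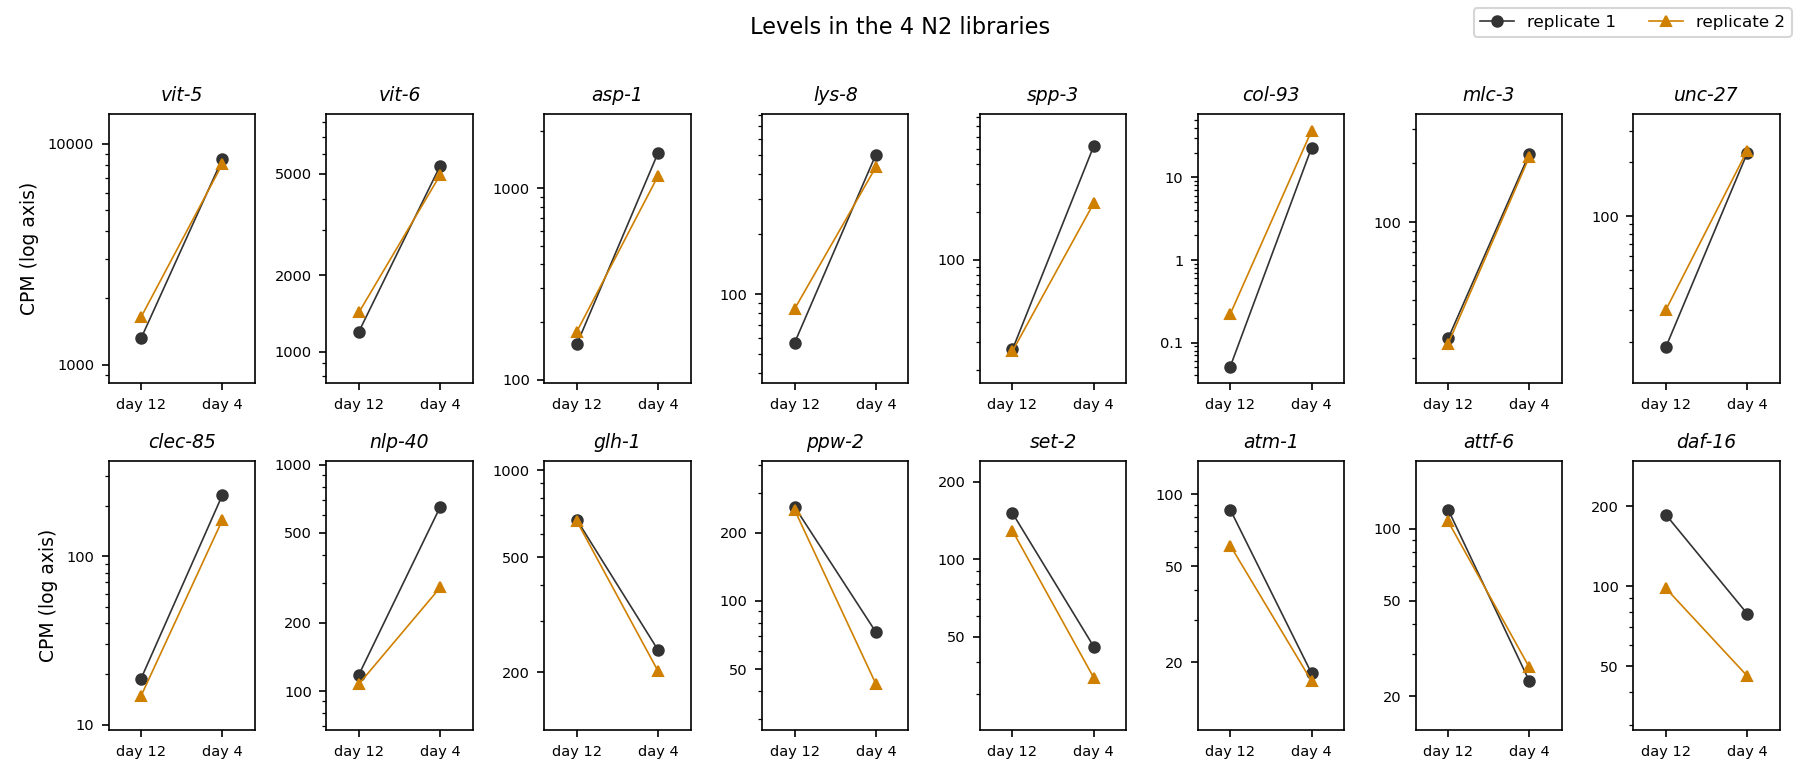
Level of 16 genes in the 4 N2 libraries, in CPM on a log axis, with day 12 left of day 4 in each panel. Circles are replicate 1, triangles replicate 2, and a line joins the libraries of a replicate. Genes from vit-5 to nlp-40 were lower at day 12 in both replicates and those from glh-1 to daf-16 higher in both, and the steepest of these lines is that of col-93.

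Cuticle collagens, the main proteins of the worm's outer coat, held some of the largest decreases by log2 fold change. The replicate tables shared 171 collagen genes, of which 147 were tested, and 30 were called lower (20.4%) and 0 higher, with a median of -2.003. The neighbouring genes col-92, col-93 and col-94 on chromosome III were all among them. For col-93 the values were 0.0513 and 0.222 CPM at day 12, against 22.9 and 36.8 CPM at day 4 (-7.76 ± 0.59, edgeR adjusted p = 0.0143). The gene col-20 stood at 1.69 and 2.96 CPM at day 12, against 83.7 and 92.8 CPM at day 4 (-5.35 ± 0.71, edgeR adjusted p = 0.0225), and col-160 at 1.75 and 6.002 CPM at day 12, against 58.4 and 180.0 CPM at day 4 (-4.98 ± 0.73, edgeR adjusted p = 0.0252). No read of col-146 or col-175 was counted at day 12. Taking 3 reads over both libraries as the floor, col-146 was at least 51.6-fold lower and col-175 at least 30.3-fold lower at day 12. The summed level of the collagens was 737.7 and 2085 CPM at day 12, against 6750 and 14380 CPM at day 4, so both ages varied between replicates but did not overlap. Markers of the epidermis, the tissue that makes the cuticle, had a summed level of 16.6 and 61.9 CPM at day 12, against 125.0 and 345.1 CPM at day 4. By edgeR 0 of these 6 markers were called, with 1 lower at an unadjusted p under 0.05 and 1 in DESeq2. A wider list of 31 tested genes of the epidermis and adult cuticle went both ways, with 15 above 0 and 16 below, a median of -0.04, and 3 called lower and 0 higher. It summed to 781.7 and 663.9 CPM at day 12, against 514.9 and 1101 CPM at day 4, and these ranges overlap. The part of those cells in the collagen decrease was not tested.

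The muscle genes that fell included those of troponins and myosin light chains. Of 48 tested muscle genes 11 were lower (22.9%) and 0 higher, with a median of -0.94. The troponin I gene unc-27 stood at 18.7 and 30.1 CPM at day 12, against 225.1 and 232.5 CPM at day 4 (-3.28 ± 0.41, edgeR adjusted p = 0.0225). The essential myosin light chain gene mlc-3 stood at 25.3 and 23.8 CPM at day 12, against 224.6 and 216.7 CPM at day 4 (-3.17 ± 0.34, edgeR adjusted p = 0.0225). For both genes the spread within an age was small beside the gap between ages. The troponin T gene tnt-2 (-3.40 ± 0.52, edgeR adjusted p = 0.0252), the troponin C gene pat-10 (-2.67 ± 0.41, edgeR adjusted p = 0.0252) and the calponin-like gene clik-1 (-3.15 ± 0.35, edgeR adjusted p = 0.0225) fell as well. The long myosin heavy chain genes were not called: unc-54 stood at 30.3 and 44.9 CPM at day 12, against 100 and 210.3 CPM at day 4 (-1.95 ± 0.57, edgeR adjusted p = 0.0844), and myo-3 gave -1.07 ± 0.40 (edgeR adjusted p = 0.135). Body wall muscle markers summed to 76.2 and 136.5 CPM at day 12, against 206.5 and 470.9 CPM at day 4. Markers of the pharynx, of which none was called, summed to 12.96 and 28.97 CPM at day 12. At day 4 they summed to 23.3 and 14.2 CPM, and these ranges overlap.

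Among the neuropeptide genes the called members were lower. Neuropeptide genes had 5 of 103 tested members lower, and 97 of the 103 had a log2 fold change below 0, against 8444 of the 15847 genes tested. These 5 calls were lost with the length offset described below and without the replicate block, whereas DESeq2 called 36 lower and 1 higher. DESeq2 called 9.42% of all genes lower and 11.1% higher. The peptide gene nlp-40, known as the intestinal signal of the defecation rhythm, stood at 118.2 and 107.4 CPM at day 12, against 651.4 and 286.8 CPM at day 4 (-1.99 ± 0.43, edgeR adjusted p = 0.0440). The FMRFamide-like gene flp-22 stood at 16.3 and 18.1 CPM at day 12, against 63.5 and 45.5 CPM at day 4 (-1.66 ± 0.38, edgeR adjusted p = 0.0488). Of 48 genes of neuronal function edgeR called 0, with 1 higher and 6 lower before adjustment (p under 0.05), and DESeq2 called 3 lower. Their median was -0.33. Of 7 neuron markers edgeR called 0, with 2 lower unadjusted, and DESeq2 called 1 lower. The neuron markers summed to 335.2 and 189.8 CPM at day 12, against 481.7 and 324.6 CPM at day 4.

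Detoxification and lipid genes gave few calls in edgeR. Glutathione S-transferases had 3 of 44 tested members lower, among them gst-10 at 3.39 and 3.16 CPM at day 12, against 20.3 and 39.6 CPM at day 4 (-3.15 ± 0.40, edgeR adjusted p = 0.0225). UDP-glycosyltransferases, which add sugars to small molecules, had 4 of 65 lower, and cytochrome P450 genes 1 of 69. Over all genes tested 2.4% were lower. In the same order, the family medians were -1.195, -0.95 and -0.69, and -0.52, -0.38 and -0.05 in replicate 2. Below 0 were 42 of 44, 55 of 65 and 54 of 69 members. DESeq2 called 12, 16 and 14 members lower and 0, 2 and 0 higher, beside 9.42% lower and 11.1% higher over all genes tested. In fat metabolism acdh-1, an acyl-CoA dehydrogenase gene that responds to diet, stood at 16.12 and 7.18 CPM at day 12, against 317.4 and 86.4 CPM at day 4 (-3.95 ± 0.66, edgeR adjusted p = 0.0283). Its replicates differed widely at each age, but the ages did not overlap, as in all 380 genes called lower. In the list of fatty acid synthesis and desaturation 2 of 27 tested genes were lower and 1 higher, and DESeq2 called 9 lower and 3 higher. The desaturase gene fat-4 fell by 1.398 ± 0.29 on the log2 scale (edgeR adjusted p = 0.0386). The fatty acid and retinol binding protein gene far-2, one of the most abundant transcripts per length at day 4, stood at 690.6 and 1623 CPM at day 12, against 3556 and 4982 CPM at day 4 (-1.99 ± 0.39, edgeR adjusted p = 0.0353). The glycerol synthesis gene gpdh-1, which responds to osmotic stress, fell by 2.24 ± 0.33 on the log2 scale (edgeR adjusted p = 0.0252).

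Gene families grouped by symbol, a choice made after the calls were seen, gave further decreases. The transthyretin-related genes, which encode small secreted proteins found in nematodes, had 12 of 54 tested members lower, and the nematode-specific peptide families nspc and nspg 10 of 18 and 8 of 11. For nspc-16 the values were 10.3 and 5.22 CPM at day 12, against 92.6 and 89.9 CPM at day 4 (-3.58 ± 0.41, edgeR adjusted p = 0.0225). The nspc genes called lower lay in 2 runs of 5 on chromosome X, at positions 12342946 to 12361159 and 14523575 to 14530207. Of 6 tested pud genes, a family known from insulin receptor mutants, 5 were lower in a run on chromosome V at positions 2322038 to 2330930, with log2 fold changes between -5.86 and -4.81. The largest of these, that of pud-3, rests on few reads at day 12 (13 and 2) and on replicates that differed widely. At day 4 pud-3 stood at 28.5 and 1.02 CPM, and its differences per replicate were -5.12 and -1.48. Members of both families are near-identical copies, so how reads were shared among them is uncertain.

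The genes that were higher at day 12 had other functions. They included genes of germ cells, chromatin, DNA repair, small RNA pathways and RNA metabolism. Nearly all were long genes, and 10 of the 334 were still called higher with the length offset described below. In a list of 44 tested genes of germ granules, germ cell fate and meiosis 9 were higher (20.5%) and 0 lower, with a median of 1.00. The germ granule helicase gene glh-1 stood at 674.0 and 667.0 CPM at day 12, against 239.0 and 202.1 CPM at day 4 (1.604 ± 0.25, edgeR adjusted p = 0.0260). Its relative glh-2 stood at 281.5 and 178.1 CPM at day 12, against 80.4 and 41.97 CPM at day 4 (1.93 ± 0.32, edgeR adjusted p = 0.0279). The 2 ages did not overlap for either gene, as for 330 of the 334 genes called higher. Germ cell markers summed to 2459 and 1688 CPM at day 12, against 1027 and 893.3 CPM at day 4. Oocyte markers summed to 4773 and 2280 CPM at day 12, against 3554 and 2971 CPM at day 4, and these ranges overlap, although the oocyte regulator gene lin-41 was called higher (1.81 ± 0.29, edgeR adjusted p = 0.0269). Embryo markers summed to 12.2 and 10.9 CPM at day 12, against 18.4 and 19.5 CPM at day 4.

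In small RNA pathways 10 of 56 tested genes were higher (17.9%) and 0 lower. The Argonaute gene ppw-2, whose protein binds small RNAs, stood at 260.2 and 252.4 CPM at day 12, against 72.9 and 42.99 CPM at day 4 (2.21 ± 0.37, edgeR adjusted p = 0.0283). The gene of the small RNA-cutting enzyme Dicer, dcr-1, stood at 193.6 and 196.0 CPM at day 12, against 56.1 and 62.4 CPM at day 4 (1.72 ± 0.28, edgeR adjusted p = 0.0273). The helicase gene znfx-1, which acts in inherited silencing, stood at 99.5 and 114.1 CPM at day 12, against 25.4 and 27.7 CPM at day 4 (2.01 ± 0.28, edgeR adjusted p = 0.0251). All 3 genes were more than 2-fold higher at day 12 in each replicate, as were 6.84% of all genes tested. The gene ppw-2 lay in a run of 4 neighbours called higher on chromosome I at positions 5158511 to 5182801, with the condensin gene hcp-6, the centrosome gene spd-5 and the nuclear pore gene npp-6.

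In DNA repair and checkpoint signalling 11 of 44 tested genes were higher (25%) and 0 lower. The checkpoint kinase gene atm-1 stood at 86.04 and 61.02 CPM at day 12, against 17.9 and 16.7 CPM at day 4 (2.07 ± 0.34, edgeR adjusted p = 0.0277). The related kinase gene atl-1 stood at 103.0 and 149.5 CPM at day 12, against 37.4 and 46.98 CPM at day 4 (1.58 ± 0.28, edgeR adjusted p = 0.0306). The nucleotide excision repair gene xpc-1 stood at 164.0 and 157.3 CPM at day 12, against 53.1 and 51.8 CPM at day 4 (1.61 ± 0.23, edgeR adjusted p = 0.0252). Each of these 3 genes was higher in both replicates, as were all 334 genes called higher. The Bloom helicase gene him-6 was higher by 1.98 ± 0.34 on the log2 scale (edgeR adjusted p = 0.0300), and the catalytic subunit of DNA polymerase epsilon, pole-1, by 1.97 ± 0.32 (edgeR adjusted p = 0.0270).

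Chromatin and transcription genes followed the same direction, with 6 of 42 tested genes of histone methylation and deacetylation higher and 0 lower. The histone H3 lysine methyltransferase gene set-2 stood at 151.1 and 129.1 CPM at day 12, against 45.7 and 34.6 CPM at day 4 (1.81 ± 0.24, edgeR adjusted p = 0.0225). The related genes met-1 (1.51 ± 0.31, edgeR adjusted p = 0.0381) and met-2 (1.54 ± 0.26, edgeR adjusted p = 0.0290) rose too, as did cbp-1, which encodes a histone acetyltransferase (1.70 ± 0.35, edgeR adjusted p = 0.0389). The largest subunit of RNA polymerase II, ama-1, stood at 396.9 and 289.6 CPM at day 12, against 46.1 and 84.8 CPM at day 4 (2.51 ± 0.54, edgeR adjusted p = 0.0427). For these genes both replicates were higher at day 12, as for all 334 genes called higher. The AT-hook gene attf-6 had the smallest p among the higher genes, with 120.3 and 107.3 CPM at day 12, against 23.1 and 26.4 CPM at day 4 (2.2 ± 0.27, edgeR adjusted p = 0.0225). The dosage compensation gene dpy-21 was higher by 2.29 ± 0.45 on the log2 scale (edgeR adjusted p = 0.0353), and the condensin gene smc-4 by 1.75 ± 0.24 (edgeR adjusted p = 0.0238).

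Genes of RNA processing were also among those that rose. The nuclear pore gene npp-21 stood at 426.7 and 435.8 CPM at day 12, against 95.03 and 146.9 CPM at day 4 (1.87 ± 0.25, edgeR adjusted p = 0.0238). The helicase gene of nonsense-mediated decay, smg-2, stood at 104.1 and 101.5 CPM at day 12, against 19.7 and 27.8 CPM at day 4 (2.14 ± 0.30, edgeR adjusted p = 0.0238). Both genes were higher at day 12 in each replicate, as were all 334 genes called higher. Of 27 tested genes of the nucleolus and RNA polymerase I, which makes ribosomal RNA, 5 were higher and 0 lower, including the polymerase subunit rpoa-1 (2.01 ± 0.30, edgeR adjusted p = 0.0252). Among 77 translation factors and tRNA synthetases 3 were higher, among them gcn-1, a sensor of stalled ribosomes (1.80 ± 0.25, edgeR adjusted p = 0.0238), and 1 was lower, iff-2, which encodes initiation factor 5A (-1.49 ± 0.30, edgeR adjusted p = 0.0377). These counts are near the 2.11% and 2.4% over all genes tested, and no member was called by edgeR with the length offset, while DESeq2 called 17 higher and 2 lower. By symbol, a grouping made after the calls were seen, 7 of 26 npp genes (nuclear pore) and 5 of 11 ints genes (the Integrator complex, which processes small nuclear RNAs) were higher.

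In the insulin-like pathway 3 of 16 tested genes were higher and 0 lower. The receptor gene daf-2 stood at 134.9 and 96.7 CPM at day 12, against 33.8 and 45.9 CPM at day 4 (1.58 ± 0.36, edgeR adjusted p = 0.0480). The gene of its target transcription factor, daf-16, stood at 185.8 and 98.1 CPM at day 12, against 78.8 and 45.9 CPM at day 4 (1.17 ± 0.22, edgeR adjusted p = 0.0339). The DAF-16 cofactor gene smk-1 was higher by 1.22 ± 0.27 on the log2 scale (edgeR adjusted p = 0.0448). Of 25 tested genes known to be induced by DAF-16, 0 were higher and 3 lower (12%), against 2.4% lower over all genes tested. The 3 were lys-8 and lys-7, described above with the defence genes, and the saposin-like gene spp-1. This list is therefore not separate from the defence genes. The growth regulator TOR, let-363, stood at 148.8 and 146.0 CPM at day 12, against 46.2 and 55.7 CPM at day 4 (1.54 ± 0.24, edgeR adjusted p = 0.0254). None of the higher genes of these pathways was called with the offset for gene length described next.

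**Figure D3:**
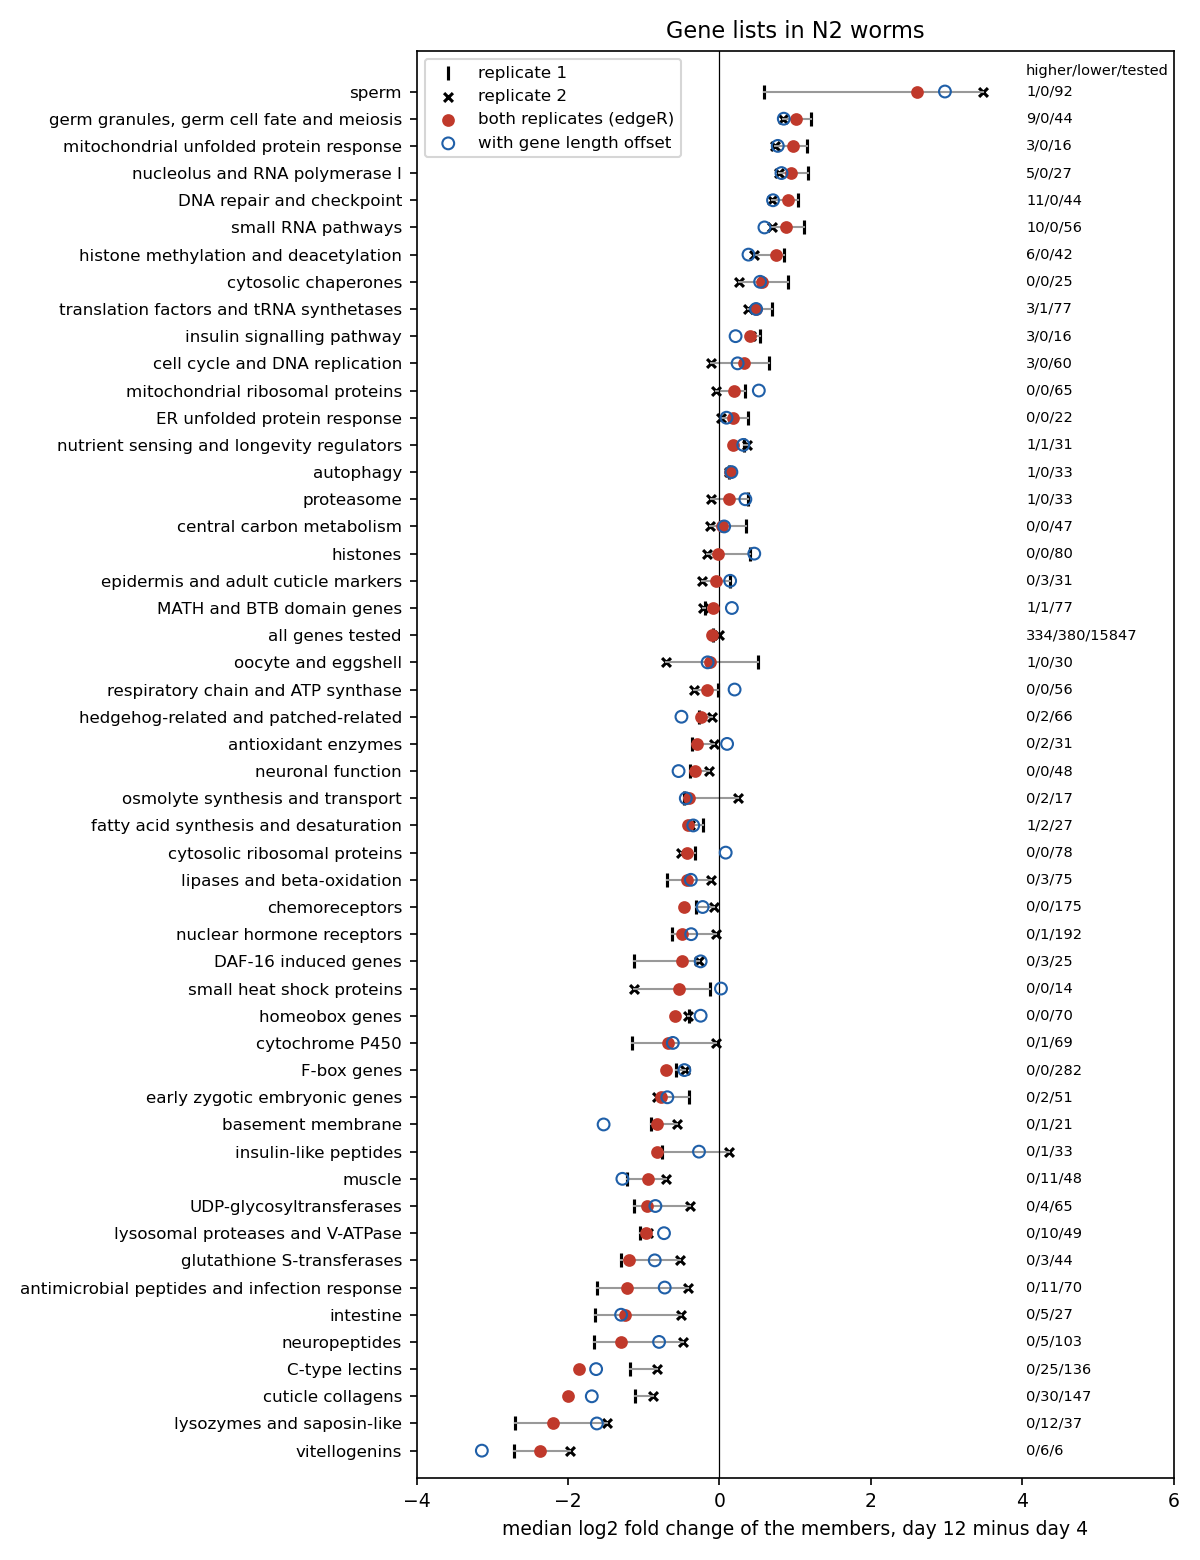
Median log2 fold change, day 12 minus day 4, of the tested members of gene lists in N2 worms. Red circles are medians from both replicates in edgeR, black bars and crosses are medians of log2 (CPM + 0.5) differences in replicates 1 and 2, and open blue circles are edgeR medians with a gene length offset. The added 0.5 CPM draws low genes toward 0, so some red circles lie outside the replicate medians. The numbers at the right count members higher, lower and tested. The 6 vitellogenins lie lowest, at -2.37, and germ granule, DNA repair and small RNA genes lie near 1.

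Exonic length went with the direction of the calls. The 334 higher genes had a median exonic length of 3997 bases and the 380 lower genes one of 972 bases, against 1309 bases over all genes tested. The tested genes were split by length into 5 equal classes, and the longest class held genes of at least 2214 bases. Of the higher genes 315 (94.3%) were in that class, and of the lower genes 29 (7.63%). The median log2 fold change of the classes, short to long, was -0.52, -0.34, -0.18, 0.05 and 0.59. Across genes, the correlation of the log2 fold change with log2 length was 0.198, with 0.33 in replicate 1 and 0.139 in replicate 2.

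When a trend with length was taken out of each library as an offset, an alternative chosen after seeing the data, 16 genes (0.101%) were called higher and 259 (1.63%) lower. Of these, 10 were among the 334 and 234 among the 380, and all 334 and all 380 kept their direction. The median of all genes tested was 0.05 with the offset, against -0.09 without it. None of the higher genes named so far kept its call. The medians of the germ granule list (0.85), DNA repair list (0.71) and small RNA list (0.59) stayed above 0 with 0 members called. For the decreases the offset gave 6 of 6 vitellogenins, 23 of 147 collagens, 16 of 136 lectins and 16 of 48 muscle genes, among the last also unc-54 (-2.84, edgeR adjusted p = 0.0201) and myo-3 (-1.93, edgeR adjusted p = 0.0334). Other lists lost calls: with the offset 0 neuropeptide genes were lower in place of 5, 0 genes of fatty acid synthesis in place of 2, 0 cytochrome P450 genes in place of 1, 1 glutathione S-transferase in place of 3 and 1 gene induced by DAF-16 in place of 3. Among the genes named as lower, ifb-2, lys-7, clec-65, col-175, nlp-40, flp-22, fat-4, far-2 and iff-2 were not called with it. The kinase gene zyg-8, which acts in spindle positioning, was higher in both fits: it stood at 99.3 and 51.5 CPM at day 12, against 22.6 and 12.0 CPM at day 4, with a difference of 2.12 ± 0.29 on the log2 scale (edgeR adjusted p = 0.0238) and of 1.82 with the offset (edgeR adjusted p = 0.0313). Short genes without a name of known function were also higher in both, such as C54F6.15 at 4.31 and 6.31 CPM at day 12, against 0.217 and 0.466 CPM at day 4 (3.98 ± 0.66, edgeR adjusted p = 0.0283).

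**Figure D4:**
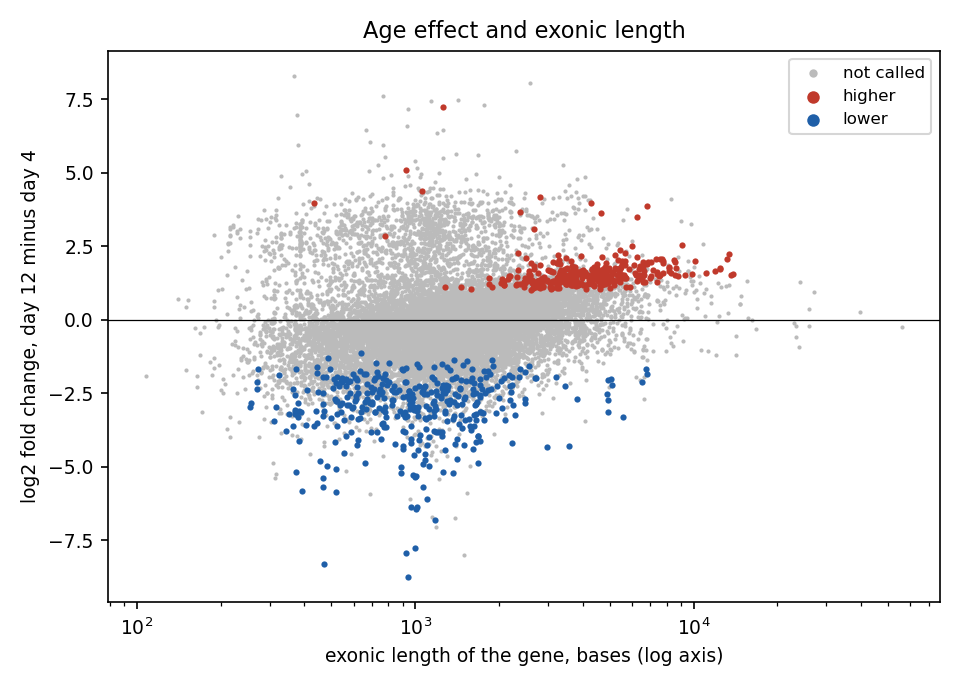
Exonic length of each tested gene in bases (horizontal log axis) against its log2 fold change, day 12 minus day 4, in N2 worms (vertical axis). Red points are genes called higher at day 12, blue points genes called lower and grey points genes not called. Most red points lie to the right, in the longest of 5 equal classes of genes (at least 2214 bases), and blue points lie over the shorter lengths.

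Chromosomes differed in the share of called genes. On chromosome X 1 of 2188 tested genes was higher (0.0457%) and 91 were lower (4.16%), and its median log2 fold change was -0.60. The single higher gene was W07E11.1, at 156.4 and 96.8 CPM at day 12, against 51.9 and 34.3 CPM at day 4 (1.55 ± 0.28, edgeR adjusted p = 0.0310). On chromosome I 94 of 2536 genes were higher and 34 lower, with a median of 0.27, and on chromosome III 94 of 2404 were higher and 32 lower, with a median of 0.16. Chromosome V had 42 of 3201 higher and 105 lower. The median on X was -0.61 in replicate 1 and -0.27 in replicate 2. With the length offset it was -0.53, against 0.33 on I and 0.28 on III, and 0 genes of X were higher and 64 lower. In worms the X chromosome is largely silent in the germ line and carries few genes of germ cells. Markers of germ cells were higher at day 12 in sum, as given above, and their part in the values of X was not tested.

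**Figure D5:**
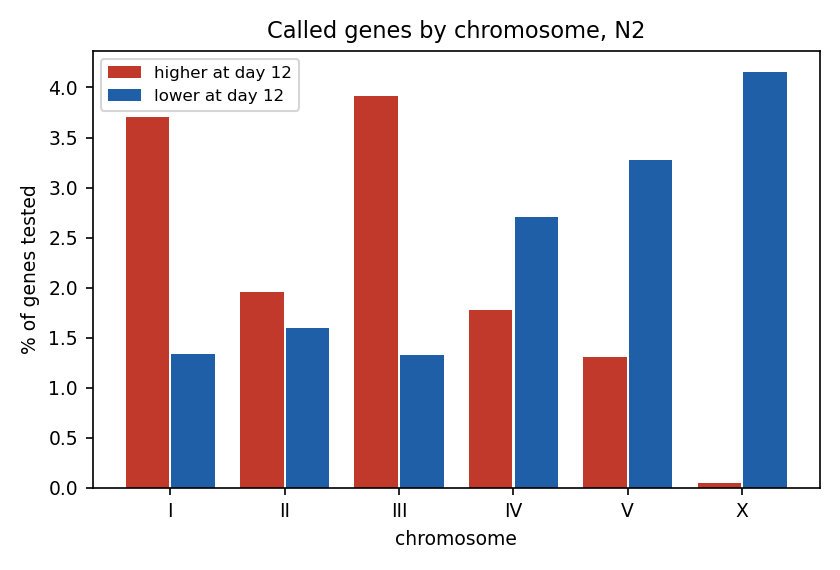
Share of tested genes called higher (red bars, left) and lower (blue bars, right) at day 12 in N2 worms, by chromosome, in percent of the genes tested there. On X 0.0457% of genes were higher and 4.16% lower, whereas on I and III more genes were higher than lower.

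Several groups known for changes with stress or age gave no call in edgeR, although DESeq2 called some of their members. The mitochondrial unfolded protein response, given beside them, did have calls in edgeR. Of 14 tested small heat shock proteins edgeR called 0, with 5 lower before adjustment (p under 0.05), and DESeq2 called 4 lower. Their median was -0.54, and 0.02 with the length offset. Of 25 cytosolic chaperones edgeR called 0, with 9 higher unadjusted, and DESeq2 called 3 higher. Their median was 0.57. The chaperone gene hsp-90 stood at 3203 and 3157 CPM at day 12, against 1819 and 2625 CPM at day 4 (0.53 ± 0.29, edgeR adjusted p = 0.257). Of 16 mitochondrial unfolded protein response genes 3 were higher (18.75%), against 2.11% of all genes tested. The 3 were ymel-1, jmjd-1.2 and the histone methyltransferase gene met-2. The gene met-2 is given above with the chromatin genes, so this list is not separate from them. With the length offset 0 of the 16 were called, and DESeq2 called 8 higher and 1 lower. Of 22 genes of the endoplasmic reticulum response 0 were called in edgeR, with 2 higher unadjusted and 1 higher in DESeq2. Of 56 respiratory chain genes edgeR called 0, with 5 higher and 15 lower unadjusted, and DESeq2 called 1 higher and 3 lower. Their median was -0.16, and 0.20 with the offset. Of 78 cytosolic ribosomal protein genes edgeR called 0, with 19 lower unadjusted, and DESeq2 called 5 lower. Of the 78, 73 had a log2 fold change below 0 and 58 were lower in both replicates. Their median was -0.42, which became 0.08 with the offset. Their summed level was 96700 and 128400 CPM at day 12, against 125200 and 179500 CPM at day 4. The sum was lower at day 12 in each replicate, although the ranges of the ages overlap. One of them, rps-23, stood at 1949 and 2716 CPM at day 12, against 3681 and 3905 CPM at day 4 (-0.71 ± 0.27, edgeR adjusted p = 0.137). In the lists of homeobox genes, chemoreceptors, F-box genes, mitochondrial ribosomal proteins, histones and central carbon metabolism edgeR called 0 of 719 tested genes. Of these 27 were higher and 47 lower before adjustment (p under 0.05), and DESeq2 called 16 higher and 25 lower.

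Sperm genes stood apart between replicates. Of 92 tested genes, many of them near-identical copies of the major sperm protein genes, 90 had a log2 fold change above 0, against 7403 of all 15847, but 1 was called. DESeq2 called 49 higher and the fit on the 4 N2 libraries alone 21. The median was 2.60, made of 0.59 in replicate 1 and 3.48 in replicate 2. The summed level was 1456 and 3221 CPM at day 12, against 940.4 and 403.8 CPM at day 4, so the ages did not overlap while both ages differed between replicates. The called gene was fer-1, which is required for the fusion of sperm vesicles, at 15.1 and 26.8 CPM at day 12, against 2.70 and 1.17 CPM at day 4 (3.51 ± 0.71, edgeR adjusted p = 0.0379). It lost its call with the length offset.

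The age difference in the mir-83 mutant uses other libraries, but shares the replicate tables and, in replicate 1, the run codes of each age. It came from the same fit on all 8 libraries, so each gene's estimate of spread and the replicate block were shared with N2. Calls in both strains are therefore not independent. Of the genes called in N2, 377 of the 380 lower and 254 of the 334 higher had the same sign in mir-83. These are 99.2% and 76%, beside 68.6% of all tested genes below 0 in N2 and 74% of those above 0, so the share of the higher genes is near that of all genes. In mir-83 edgeR called 2025 of all tested genes higher (12.8%) and 2405 lower (15.2%). There 344 of the lower genes were also called lower, and of the higher genes 153 were called higher and 21 lower. The difference between the 2 age effects was called for 0% of genes in edgeR (0 of 15847, smallest adjusted p 0.0549), where 2912 genes were under 0.05 before adjustment, and for 1327 genes in DESeq2.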

How the data were processed

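Unscaled whole counts for each transcript were deposited by the authors, with 1 table per replicate number. The submitters' processing notes name Bowtie2, edgeR and the build ce11, with no versions or roles. Counting and the use of strand are not described in them. The replicate 1 table held 30443 lines under WormBase names and that of replicate 2 had 29023 lines under RefSeq accessions. Lines were matched to genes of the WBcel235 annotation, the assembly that ce11 names, and counts were summed per gene. Of these lines 207 (0.0837% of reads) and 276 (0.242%) matched no gene and were left out, as were genes found in 1 table only. The tables held 2 other value columns, which were not used. The mir-83 gene was not described, and GC content was not computed because no genome sequence was used.

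Counts were scaled with TMM and filtered with filterByExpr. The edgeR 4.0.16 quasi-likelihood test (glmQLFit and glmQLFTest, two-sided, Benjamini-Hochberg adjusted over 15847 genes) used all 8 libraries with 1 mean per group and the replicate number as a block, because replicates stand in separate tables. That left 3 residual degrees of freedom, and the common biological coefficient of variation was 0.429. TMM factors were 1.08 to 1.23 in the N2 libraries and 0.596 and 0.644 in mir-83 day 4. As a check of the pairing, each library's deviation from its group mean was correlated with that of the library of the same number in another group. The correlation was 0.118 to 0.415 in the 6 pairs of groups, and 0.141 for the N2 ages. Standard errors come from the F statistic. The differences per replicate add 0.5 CPM before the log2. Lists were described by counts and medians with no set test.

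The members, gene lists and rules were chosen with earlier results of these data known. Genes were named from those that met the following rules, and not every gene that met them is named. The rules took the 12 called genes per direction with the smallest p and the 8 with the largest change. Each of these needed a gene symbol, 1 direction in both replicates and 10 or more reads on average. They also took up to 4 called members per list and up to 3 abundant members of a list without calls. The 10 most abundant genes per length at each age were added. Left out above were, for example, pad-1 by p and spc-2 by size (3.87 ± 0.83 on the log2 scale). Other named genes were chosen after their values were seen. The test was checked on simulated data for this comparison with 15847 genes: of 60 genes set to change 2-fold it found 0%, of 74 set to 4-fold 44.6% and of 66 set to 8-fold 69.7%, and it made 1 false call. Counts were drawn independently for each gene, and changes were set only in genes above a minimum mean count. The spread was set by a trend with level, so genes of the same level had the same spread. Far fewer genes were changed than the 4460 with an unadjusted p under 0.05 in the data. The recovery rates and the false call hold for that setting alone. No trend with gene length was put between the N2 ages. The simulation therefore cannot show how many calls a difference tied to length would produce. Alternatives were RLE size factors, plain library sizes, no filter, no replicate block, other sets of libraries, DESeq2 1.42.0, fits with 1 library omitted, stricter thresholds and a gene length offset. R 4.3.3 and Python 3.11.15 were used.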

Additional observations from a re-analysis of the deposited data

How the results depend on the processing

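In every alternative the 334 higher and 380 lower genes kept their direction, except 1 of the 380 in the fit on the 4 N2 libraries alone. These genes were called in the same libraries with 1 direction in both replicates, so a kept direction adds no support for the calls. The number past the threshold changed widely. With plain library sizes 657 genes were higher, with no filter 579 were lower, and with the length offset 16 were higher. The fit on the 4 N2 libraries called 750 higher and 701 lower, the fit without both mir-83 day 12 libraries 1221 and 1099, and DESeq2 1763 and 1493. Without the replicate block 48 genes were higher and 88 lower, all of them among the 334 and 380. At an adjusted p under 0.01 edgeR called 0 higher and 0 lower, where 4460 genes had an unadjusted p under 0.05. All called genes changed at least 2-fold.

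With 1 library left out, the calls ranged between 0 and 1310 higher and between 0 and 1165 lower, and the lone sample of an age is then assumed to vary like the other groups. Without N2 day 12 replicate 1 or 2 the calls were 0 and 0, with 1999 higher and 998 lower at an unadjusted p under 0.05 in the first case and 1285 and 1538 in the second. Without N2 day 4 replicate 1 they were 0 and 3 (1330 and 893 unadjusted), and without its replicate 2 they were 42 and 433. Without mir-83 day 4 replicate 1 or 2 they were 15 and 115, or 14 and 114, and without mir-83 day 12 replicate 1 or 2 they were 1306 and 1165, or 1310 and 1104. At least 4-fold in both replicates were 50 genes higher and 256 lower. For the difference of the age effects between mir-83 and N2, DESeq2 called 1327 genes, and edgeR without the block 0. The cause of these changes was not tested. Of the fifth of genes with the lowest level, edgeR called 0 higher and 10 lower, and the part of depth in this was not tested.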

Other observations

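Genes with a row in 1 replicate table only entered no test, and their values come from 1 library per age. In the replicate 1 table the genes of the mitochondrial genome were among them. The cytochrome oxidase subunit gene COX3 had 1256 reads per M deposited reads at day 12 and 2897 at day 4, and the NADH dehydrogenase subunit gene ND1 had 400.4 at day 12 and 775.1 at day 4. In the same table the nucleolar gene nol-58 had 539.5 reads per M at day 12 and 298.1 at day 4, and the ribosomal protein gene rpl-41.2 had 650.0 at day 12 and 1994 at day 4. In the replicate 2 table the noncoding RNA tts-1 had 1876 reads per M at day 12 and 2036 at day 4. These differences have no replicate check.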
